A study of Mus musculus with 2 samples.

Results

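The Wnt pathway genes are 45 of the 16934 mouse genes to which the deposited ATAC-seq table assigns a peak, and they hold 151 of its 63316 peaks. They were chosen by gene symbol alone. The rule takes the numbered members of the Wnt, Fzd, Dkk, Sfrp, Dvl, Axin and Rspo families together with Lrp5, Lrp6, Lef1, Tcf7, Tcf7l1, Tcf7l2, Ctnnb1, Apc, Gsk3b, Znrf3, Rnf43, Ror1, Ror2, Frzb and Wif1. Of the 61 protein-coding mouse symbols in RefSeq that fit this rule, 16 had no assigned peak. These were Wnt1, Wnt2, Wnt4, Wnt8b, Wnt9b, Wnt10a, Wnt10b, Rspo1, Dkk1, Dkk4, Sfrp4, Sfrp5, Fzd6, Fzd9, Fzd10 and Lef1. The table's own pathway column listed Wnt signaling for 44 of the 45 members, all except Dkk3.

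Wnt proteins are secreted lipid-modified ligands that bind Frizzled receptors and the co-receptors Lrp5 and Lrp6. In the canonical branch, binding stops a cytoplasmic complex of Axin, Apc and Gsk3b from marking β-catenin (Ctnnb1) for degradation, and β-catenin then acts with TCF/LEF factors on target genes. Several secreted Dkk and Sfrp proteins restrain the ligands or co-receptors, R-spondins and the ligases Znrf3 and Rnf43 set how many receptors stay at the surface, and Ror1 and Ror2 carry signals that do not need β-catenin. In the heart the pathway is known for roles in fibroblast activation and scar formation after injury.

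ATAC-seq measures open chromatin through the DNA fragments that the Tn5 transposase can reach. The 2 libraries came from primary cardiac fibroblasts of mice, both given TGF-β at 5 ng/ml over 24 h, a cytokine that turns fibroblasts into contractile, matrix-producing myofibroblasts. The NC library came from cells with a scrambled control siRNA, and the siPiezo2 library from cells with an siRNA against Piezo2, a mechanosensitive ion channel. The comparison asks how the accessibility of Wnt pathway genes differs when Piezo2 is silenced under TGF-β. With a single library for each condition, the differences below have no replicate check, and no p-value is given. The labels give neither the age of the animals nor how many were pooled. The series' own design text names a Cre-mediated Tet3 knockout instead of an siRNA, and the study's methods describe minced tissue and another kit than the labels do. The sample labels were followed, and these differences were not settled.

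Values are read densities normalized by the authors, in reads per kb of a 2000 bp window at each peak. The windows held 4615335 reads in the NC library and 2754046 in the siPiezo2 library, with medians of 58 and 36 reads per peak. Ratios are log2((siPiezo2 + 1)/(NC + 1)), so that values below 0 are lower in the siPiezo2 library, and adding 1 makes the ratios of weak peaks smaller than they would be otherwise. The 95% exact binomial (Clopper-Pearson) intervals, printed in brackets after a ratio, come from the recovered reads and cover counting error only. At peaks called in both libraries the spread was 2.09 times the counting variance. Piezo2 had 14 assigned peaks with summed densities of 334 in NC and 242 in siPiezo2, a ratio of -0.46 (-0.64 to -0.29). An siRNA acts on the mRNA, so these peaks do not check the knockdown. Of the 10 cardiac fibroblast markers examined, 8 had a peak, with summed densities of 903 in NC and 767 in siPiezo2, while Lum and Thy1 had none. Of these 8, 7 had a ratio below 0 as deposited (all genes 62.6%), and 7 on recovered reads at equal library totals (all genes 46.0%). Of the markers of other cells, 2 of 5 cardiomyocyte genes, Tnnt2 and Actn2, had peaks (84.0 and 82.5), and Myh6, Tnni3 and Nppa had none. All 5 endothelial genes (376 and 405), 3 of 5 macrophage genes (204 and 168, with none at Adgre1 and Lyz2), 3 of 4 mural genes (413 and 339.6, with none at Kcnj8) and 3 of 3 mesothelial genes (98.8 and 84.3) had peaks. Single markers past 1.5-fold were the pericyte gene Rgs5 (127 and 56.0 in NC and siPiezo2), the mesothelial gene Wt1 (55.6 and 36.2) and the endothelial gene Cdh5 (47.7 and 78.0). Other markers of the same lists went the other way, namely mural Cspg4 (147 and 165), mesothelial Upk3b (17.5 and 26.4) and endothelial Kdr (19.0 and 17.7) and Tek (157 and 151). Myh11 and Msln were lower, and Emcn and, barely, Pecam1 higher. The part of cell makeup in the values below was not tested, and in bulk libraries fewer cells of a type and less open chromatin per cell cannot be told apart.

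As deposited, most Wnt pathway genes had a lower density in the siPiezo2 library, as most genes of the table had, while on recovered reads at equal library totals 20 of the 45 (44.4%, all genes 46.0%) were below 0. Summed over the peaks of each gene as deposited, 33 of the 45 members (73.3%) had a ratio below 0, against 62.6% of all genes. The median member ratio was -0.12 (quartiles -0.30 and 0.062), and the median of all genes was -0.093 (quartiles -0.29 and 0.10). Relative to that median, 23 of the 45 members lay below it. All member peaks together had a density of 4310.2 in NC and 3888 in siPiezo2, from 10464 and 6161 reads, a ratio of -0.15 (-0.19 to -0.10) as deposited. On reads at equal totals this ratio was -0.019 (-0.065 to 0.026), which holds 0. The sum over the peaks of all genes had a ratio of -0.10 as deposited and -0.0049 on reads at equal totals. Values below are as deposited unless another scaling is named.

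Few members passed 1.5-fold. Fzd3 was the only member below 0.66 of NC (1 of 45), against 6.21% of all genes, and Sfrp2 and Wnt8a were the members above 1.5 of NC (2 of 45), against 1.54% of all genes. The call of Fzd3 ended on reads at equal totals, where no member was below 0.66 of NC (all genes 3.02%), and Rspo2, Wnt7a, Wnt8a and Sfrp2 were above 1.5 of NC (all genes 4.32%). As deposited, the counting interval lay below 0 for 10 members, Dkk3, Sfrp1, Axin1, Dvl2, Wnt2b, Wnt5b, Tcf7, Znrf3, Fzd3 and Ror1, against 15.8% of all genes. It lay above 0 for 4 members, Rspo2, Wnt7a, Wnt8a and Sfrp2, against 4.68% of all genes. Windows of neighbouring peaks can overlap and count the same reads again, which was so for 15 member peaks. With overlapping windows left out, the intervals of Dvl2 (-0.64 to 0.33) and Tcf7 (-0.69 to 0.25) came to hold 0.

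The sign of a small ratio depended on the scaling of the libraries. Over the deposited densities, 3 rescalings of them and the recovered reads at equal totals, 5 scalings in all, the median of all genes moved between -0.093 and 0.046, and the member median between -0.12 and 0.045. Under all 5 scalings, 18 members (40%) were below 0 and 12 (26.7%) above 0, against 39.2% and 36.2% of all genes, and 15 members changed sign. The 10 members whose interval lay below 0 were among the 18, and the 4 whose interval lay above 0 among the 12. The intervals moved with the scaling too. Only Axin1, Dkk3 and Sfrp1 had an interval below 0 under all 5 scalings (3 of 45, all genes 6.18%), while Rspo2, Wnt7a, Wnt8a and Sfrp2 had one above 0 under all 5 (4 of 45, all genes 4%). A peak called in 1 library alone tends to be higher there, which no rescaling can test. Over all peaks of the table, the median was -0.23 for those called in NC alone and 0.58 for those called in siPiezo2 alone. On reads at equal totals these medians were -0.025 and 0.83. The intervals of Ror1 and Znrf3 came to hold 0 on reads at equal totals, that of Tcf7 with median-of-ratios and trimmed mean scaling, and those of Dvl2, Wnt2b, Wnt5b and Fzd3 under each of the other 4 scalings. On reads at equal totals, 5 members had an interval below 0 (all genes 8.39%), which were Axin1, Dkk3, Sfrp1, Tcf7 and Fzd7, and 4 had one above 0 (all genes 9.36%). With overlapping windows left out, the deposited intervals of Tcf7 and Fzd7 held 0. The interval of Gsk3b, which holds 0 as deposited and on reads, lay above 0 at equal total density (0.046 to 0.43), with median-of-ratios (0.098 to 0.48) and with trimmed mean scaling (0.10 to 0.48). The members that changed sign were Apc, Ctnnb1, Dkk2, Fzd8, Lrp5, Lrp6, Rnf43, Ror2, Tcf7l1, Tcf7l2, Wif1, Wnt3, Wnt3a, Wnt5a and Wnt6, and no direction is given for these genes as a whole.

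**Figure D1:**
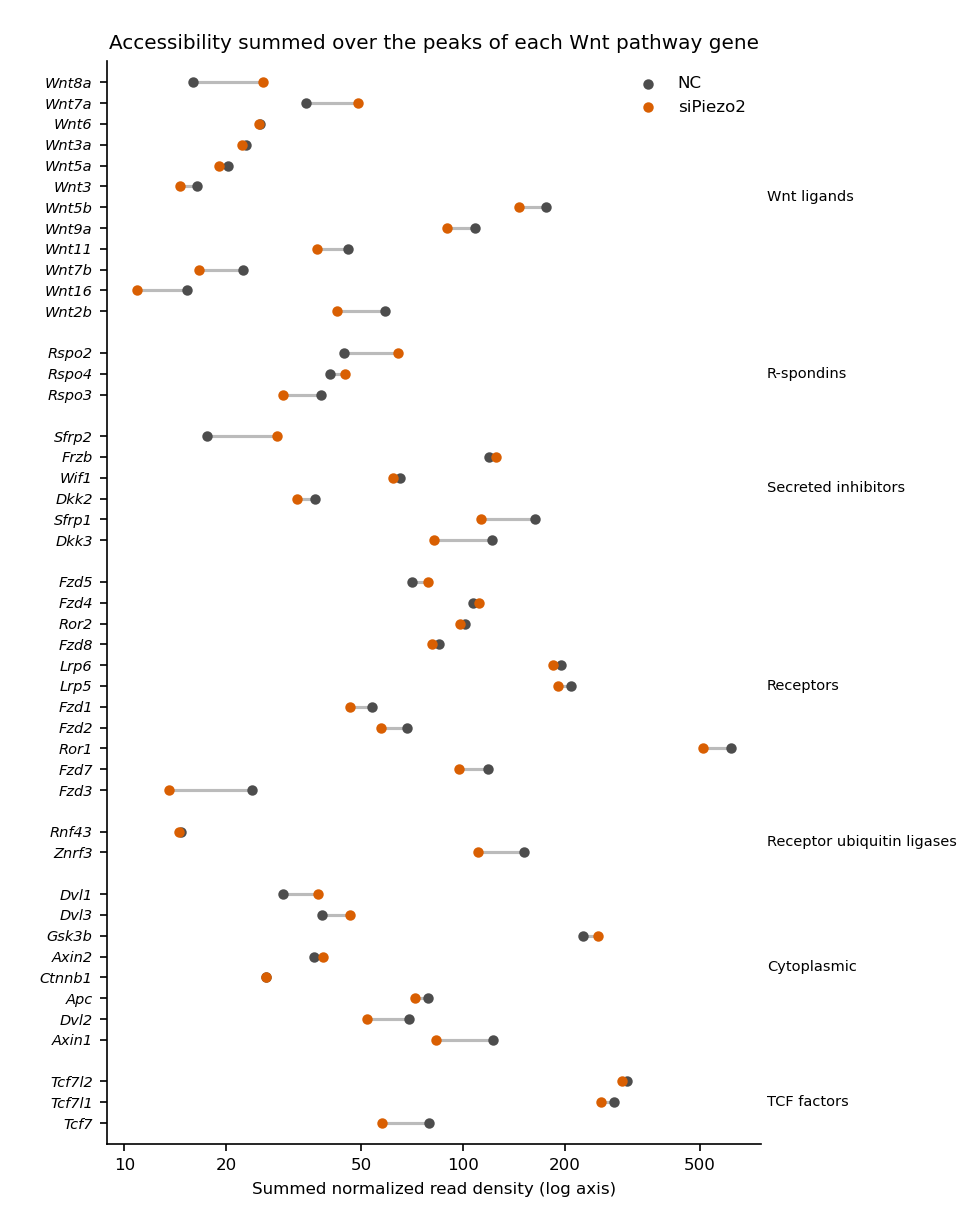
Normalized read density summed over the peaks of each of the 45 Wnt pathway genes (log axis), grouped by role, with 1 point for the NC library (grey) and 1 for the siPiezo2 library (orange) joined by a line. Ror1 had the highest sums (617 and 511), and the members Wnt8a, Wnt7a, Rspo2 and Sfrp2 have their siPiezo2 point clearly to the right of the NC point.

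**Figure D2:**
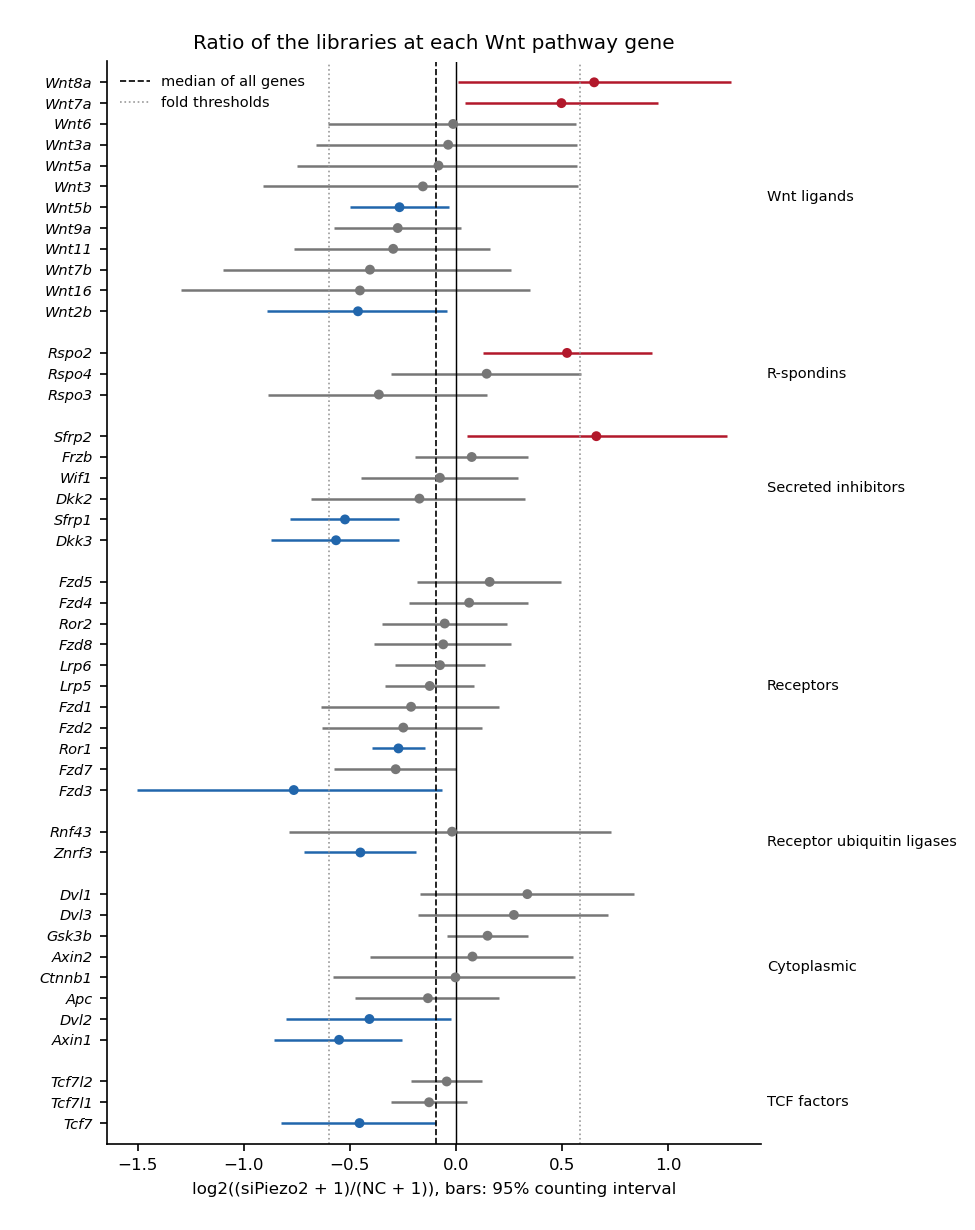
Log2 ratio of siPiezo2 to NC for each Wnt pathway gene, with the 95% counting interval as a bar, in blue where it lies below 0 (10 genes), red where it lies above 0 (4 genes) and grey otherwise. The dashed line is the median of all genes (-0.093) and the dotted lines mark the fold thresholds, which only Fzd3, Sfrp2 and Wnt8a passed.

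Among the ligands, 12 Wnt genes had a peak and 10 of them had a ratio below 0 (all genes 62.6%), with a median of -0.21. Both values are set by the scaling. On the recovered reads at equal totals, 6 of the 12 were below 0 (all genes 46.0%) and the median was 0.018. Wnt5b, a ligand of the β-catenin-independent branch, had the most peaks of the ligands (7) and the highest summed density, 176 in NC and 146 in siPiezo2 (416 and 235 reads), a ratio of -0.27 (-0.50 to -0.034). Its peaks differed among themselves. The peak in intron 4 of 4, at chr6:119415124-119415643, had 33.2 and 16.3 and a ratio of -0.98 (-1.65 to -0.36), while the peak in the 5′ UTR, at chr6:119426060-119426302, had 19.8 and 29.0 and a ratio of 0.53 (-0.063 to 1.12). Positions here and below are those of the table, whose start sites for these genes are mostly not those of GRCm38.

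Wnt2b, a canonical ligand, had 58.9 in NC and 42.4 in siPiezo2 over 2 peaks, a ratio of -0.46 (-0.89 to -0.043). The larger part of that difference lay in a peak just downstream of the gene, at chr3:104852287-104852591, with 35.1 and 21.4 (85 and 34 reads). The peak in its intron 1 had 23.7 and 21.0. Wnt7a and Wnt8a went the other way. Wnt7a had 34.4 in NC and 48.9 in siPiezo2 over 2 intron peaks, a ratio of 0.50 (0.043 to 0.95). Wnt8a had 15.9 in NC and 25.6 in siPiezo2 at a single peak in its last exon, a ratio of 0.65 (0.011 to 1.30) that rests on 37 and 42 reads. Their mean summed densities stood at percentiles 43.7 and 14.3 of all genes. The intervals of the other 8 ligands, Wnt3, Wnt3a, Wnt5a, Wnt6, Wnt7b, Wnt9a, Wnt11 and Wnt16, held 0. Wnt5a, often studied in fibroblasts, had a single 5′ UTR peak of 20.2 and 19.0.

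The R-spondins, which amplify Wnt signals by taking Znrf3 and Rnf43 off the membrane, had few and weak peaks. Rspo2 had 44.4 in NC and 64.3 in siPiezo2 over 3 intron peaks (102 and 106 reads), a ratio of 0.52 (0.12 to 0.92), and each of the 3 peaks was higher in siPiezo2. The peaks had 18.4 and 24.5, 9.62 and 16.6, and 16.4 and 23.2 in NC and siPiezo2. Rspo4 had 40.5 and 44.9 and Rspo3 had 38.0 and 29.3, with intervals of -0.31 to 0.59 and -0.89 to 0.15. The interval of Rspo2 lay above 0 but overlapped those of both relatives, so no difference among these genes is shown.

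The genes grouped by family as secreted inhibitors split, with Dkk3 and Sfrp1 lower and Sfrp2 higher. Dkk3, a divergent Dickkopf family protein, had 122 in NC and 81.9 in siPiezo2 (292 and 131 reads), a ratio of -0.57 (-0.87 to -0.27). All 4 of its peaks lay in introns and all 4 were below 0 as deposited (3 of 4 on reads at equal totals), with ratios from -0.76 to -0.20. Sfrp1, which binds Wnt proteins outside the cell, had 162 in NC and 113 in siPiezo2 (401 and 177 reads), a ratio of -0.52 (-0.78 to -0.27). Its 4 peaks were all lower, also on reads at equal totals. The promoter peak had 41.2 and 29.4, a ratio of -0.48 whose interval held 0, and the intron 2 peak at chr8:23925434-23925976 had 47.6 and 26.3, a ratio of -0.83 (-1.37 to -0.32).

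Sfrp2, a relative of Sfrp1, had 17.5 in NC and 28.2 in siPiezo2 at a single peak between 1 and 2 kb upstream of its start, a ratio of 0.66 (0.050 to 1.28) from 41 and 46 reads. It passed 1.5-fold, and its lower bound lay close to 0. Frzb (also called Sfrp3) had the most peaks of the inhibitors, 5, with 119 in NC and 125 in siPiezo2, a ratio of 0.074 (-0.19 to 0.34). Dkk2 (36.6 and 32.4) and Wif1 (65.3 and 61.9) had intervals of -0.68 to 0.33 and -0.45 to 0.29.

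Of the 11 receptor genes, Ror1 carried by far the most data. Ror1, a receptor tyrosine kinase-like protein that binds Wnt5a, had 22 peaks and summed densities of 617 in NC and 511 in siPiezo2 (1486 and 816 reads), a ratio of -0.27 (-0.40 to -0.15). With overlapping windows left out the interval was -0.38 to -0.12. The ratio of the gene was -0.18 at equal total density, -0.13 with median-of-ratios and with trimmed mean scaling, -0.12 on reads at equal totals (-0.24 to 0.0043, which holds 0), and 0.044 at its strongest peak alone. Of its 22 peaks, 16 were below 0 as deposited and 12 on reads at equal totals. As deposited, 5 of the 22, with a pair among them that share part of a window, were below 0.66 of NC (13.5% of all peaks of the table) and none was above 1.5 of NC (3.21% of all peaks). On reads at equal totals, 1 was below 0.66 of NC (7.42% of all peaks) and 3 were above 1.5 (8% of all peaks). The peak at its 5′ UTR had 36.6 and 37.0, a ratio of 0.015 (-0.47 to 0.49), and the peaks with the lowest ratios lay in introns. The lowest was at chr4:100105041-100105755 in intron 1, 152 kb into the gene, with 39.6 and 19.6 (96 and 31 reads) and a ratio of -0.98 (-1.59 to -0.40). The start site nearest to this peak is that of another gene. A pair of neighbouring peaks in intron 4, at chr4:100258831-100259122 and chr4:100259222-100259550, share part of their windows and had 40.7 and 24.8, and 41.5 and 25.5. The ratios along the gene were mixed rather than graded with distance. Ror2, its close relative, had 4 peaks with 101 and 97.7, and its interval was -0.35 to 0.24.

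The Frizzled genes were measured mainly at promoters. Fzd3 had the lowest ratio of all members, with 23.7 in NC and 13.6 in siPiezo2 at a single promoter peak and a ratio of -0.76 (-1.50 to -0.067), which rests on only 55 and 22 reads. On reads at equal totals its ratio was -0.55 (-1.30 to 0.15), short of the threshold. Fzd7 (119 and 97.3), Fzd2 (68.1 and 57.2) and Fzd1 (53.9 and 46.4) were below 0 under all 5 scalings, and their intervals held 0 as deposited. With overlapping windows left out, Fzd7 rests on 1 peak, and its interval as deposited was -0.73 to 0.093. Fzd4, the receptor of Norrin and of Wnt proteins in vessels, had 107 and 112 at 2 promoter peaks, a ratio of 0.062 (-0.22 to 0.34), or 0.090 (-0.31 to 0.48) with overlapping windows left out. Fzd5 had 70.4 in NC and 78.7 in siPiezo2, a ratio of 0.16 (-0.18 to 0.50). These 2 genes were above 0 under all 5 scalings, also with intervals that held 0. The co-receptors Lrp5 (6 peaks, 208 and 191) and Lrp6 (9 peaks, 194 and 184) had intervals of -0.33 to 0.083 and -0.29 to 0.14, and Fzd8 had 84.7 and 81.2.

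Znrf3, a ubiquitin ligase that removes Frizzled receptors from the membrane, was lower over 6 peaks, with 151 in NC and 110.4 in siPiezo2 (357 and 178 reads) and a ratio of -0.45 (-0.72 to -0.19). Its 5 intron peaks were all below 0 as deposited and 4 of the 5 on reads at equal totals. The lowest, in intron 2 at chr11:5254598-5254942, had 22.1 and 9.25 and a ratio of -1.17 (-2.04 to -0.37). The peak in intron 1 at chr11:5304741-5305140 had 39.5 and 25.4, a ratio of -0.62 (-1.17 to -0.090). Its promoter peak had 20.8 and 24.7, a ratio of 0.24 (-0.38 to 0.84), and this is the only one of its peaks within 50 kb of the start, so without the distant peaks the gene was not lower. The paralog Rnf43 had a single weak promoter peak of 14.7 and 14.5.

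In the cytoplasm, Axin1 stood lowest. Axin1, the scaffold of the complex that degrades β-catenin, had 123 in NC and 83.4 in siPiezo2 (303 and 129 reads), a ratio of -0.55 (-0.86 to -0.25). Most of this difference lay in 2 introns. The intron 2 peak at chr17:26370966-26371532 had 35.5 and 17.0 (85 and 27 reads), a ratio of -1.02 (-1.67 to -0.41), the lowest among member peaks at or above the median density. The intron 3 peak at chr17:26397651-26397947 had 29.9 and 13.1 (70 and 21 reads), a ratio of -1.13 (-1.87 to -0.45). The promoter peak, the strongest of the 3, had 57.3 and 53.3, a ratio of -0.10 (-0.50 to 0.29). The intron 2 peak was called in the NC library alone, and on peaks called in both libraries the ratio of Axin1 was -0.10. Axin2, its paralog and a common target of β-catenin, had 36.4 and 38.4 over 2 weak peaks, a ratio of 0.078 (-0.40 to 0.55).

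Gsk3b, the kinase of that complex, had the highest summed density of the cytoplasmic members, 226 in NC and 251 in siPiezo2, over 7 peaks, a ratio of 0.15 (-0.041 to 0.34). Its promoter peak was the strongest of all 151 member peaks, with 120.0 in NC and 150.3 in siPiezo2 (336 and 213 reads) and a ratio of 0.32 (0.070 to 0.57). On the recovered reads at equal totals the ratio of this peak was 0.087, so its size depends on the authors' fit, which raises the siPiezo2 density of strong peaks. The Dishevelled genes, which relay the signal from the receptors, had few peaks. Dvl1 had 29.3 and 37.3 and Dvl3 had 38.2 and 46.4, each at a single promoter peak, with ratios of 0.34 (-0.17 to 0.84) and 0.27 (-0.18 to 0.72) whose intervals hold 0. The Dvl1 peak was called in the siPiezo2 library alone, so Dvl1 is among the members only through the library where it is higher. Dvl2 had 69.3 and 52.0, a ratio of -0.41 (-0.80 to -0.026), with a promoter peak of 39.0 and 35.2 and an intron 1 peak of 30.3 and 16.8. With overlapping windows left out its ratio was -0.15 (-0.64 to 0.33). Apc (79.0 and 72.0) and Ctnnb1 (26.3 and 26.2 at a single 5′ UTR peak) had intervals of -0.47 to 0.20 and -0.58 to 0.56.

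The TCF genes encode the factors through which β-catenin reaches DNA. Tcf7 had 79.1 in NC and 57.4 in siPiezo2 over 2 intron peaks with overlapping windows, a ratio of -0.46 (-0.83 to -0.093). Tcf7l1, mostly a repressor, had 10 peaks with 279 and 256, a ratio of -0.13 (-0.31 to 0.052), with its promoter higher and most of its introns lower as deposited. Without peaks over 50 kb from the start, the ratio of Tcf7l1 was 0.25. The promoter peak at chr6:72766086-72766781 had 29.4 in NC and 48.4 in siPiezo2 (73 and 76 reads), a ratio of 0.70 (0.23 to 1.17). This was the highest ratio among member peaks at or above the median density, and it was 0.79 on reads at equal totals. Of the 9 intron peaks, 7 were below 0 as deposited and 4 on reads at equal totals. The lowest were in intron 4 at chr6:72621662-72621925 with 24.7 and 12.4, a ratio of -0.94 (-1.71 to -0.23), and in intron 3 at chr6:72688279-72688783 with 34.5 and 18.8, a ratio of -0.84 (-1.47 to -0.25). The start site nearest to the intron 3 peak is that of another gene.

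Tcf7l2, the family member most used in adult tissues, had 12 peaks with 304 and 295, a ratio of -0.044 (-0.21 to 0.12). That near-even sum hid peaks on both sides, and without peaks over 50 kb from the start the ratio of Tcf7l2 was -0.34. In intron 3, all 5 peaks were below 0 as deposited (4 of 5 on reads at equal totals), down to -0.89 at chr19:55770055-55770415, which had 35.7 and 18.9 (86 and 30 reads). In intron 4, about 124 to 135 kb from the first start, 4 successive peaks were higher, and 2 of these share part of a window. The highest ratio was at chr19:55854209-55854499 with 13.9 and 24.8, a ratio of 0.79 (0.12 to 1.47), and the strongest peak, at chr19:55864980-55865485, had 34.3 and 49.4, a ratio of 0.51 (0.062 to 0.96). The next peak, at 139 kb, was lower again with 25.9 and 12.4, a ratio of -1.01 (-1.77 to -0.30). Of the 4 higher peaks, the intervals of 2 held 0.

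**Figure D3:**
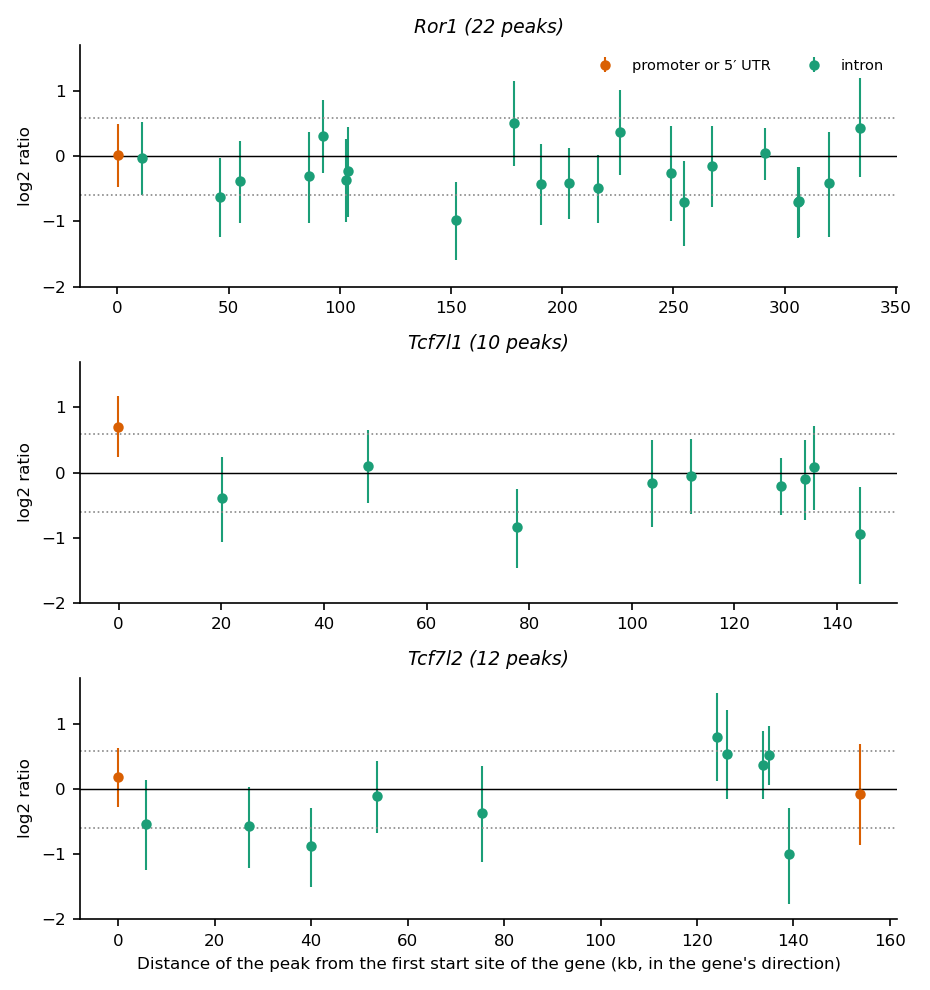
Log2 ratio of siPiezo2 to NC at each peak of Ror1 (22 peaks), Tcf7l1 (10) and Tcf7l2 (12) against the distance from the first start site of the gene in kb, with 95% counting intervals and with dotted lines at the fold thresholds. Intron peaks are green and promoter or 5′ UTR peaks orange. The Tcf7l1 promoter stands at 0.70 above its introns, and 4 intron peaks of Tcf7l2 between 124 and 135 kb stand above 0.

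Peak by peak as deposited, 102 of the 151 member peaks (67.5%) were lower in the siPiezo2 library, against 63.7% of all peaks, and the medians were -0.14 and -0.13. Below 0.66 of NC were 24 member peaks (15.9%) against 13.5% of all peaks, and above 1.5 of NC were 6 (3.97%) against 3.21%. Both shares were near the background. On reads at equal totals this imbalance was gone, with 67 member peaks (44.4%) below 0 against 48.0% of all peaks and medians of 0.024 and 0.021. There 14 member peaks (9.27%) were below 0.66 of NC against 7.42% of all peaks, and 15 (9.93%) above 1.5 against 8%. Without the 22 peaks of Ror1, as deposited, 19 member peaks were lower past the threshold and 6 higher. Introns held 108 of the member peaks (71.5%), against 42.0% of all peaks. The member intron peaks had a median of -0.17 (all intron peaks -0.17), which was 0.012 on reads at equal totals (all 0.0076). The 25 member promoter peaks within 1 kb of a start had a median of -0.098 (all such peaks -0.030), and -0.042 on reads (all 0.049). Only 41 member peaks (27.2%) were called in both libraries, against 33.8% of all peaks. The NC library alone held 104 (68.9%, all peaks 64.0%) and the siPiezo2 library alone 6 (3.97%, all peaks 2.16%), an imbalance of the table as a whole. All of the 5 lowest member peaks at or above the median density were called in the NC library alone.

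**Figure D4:**
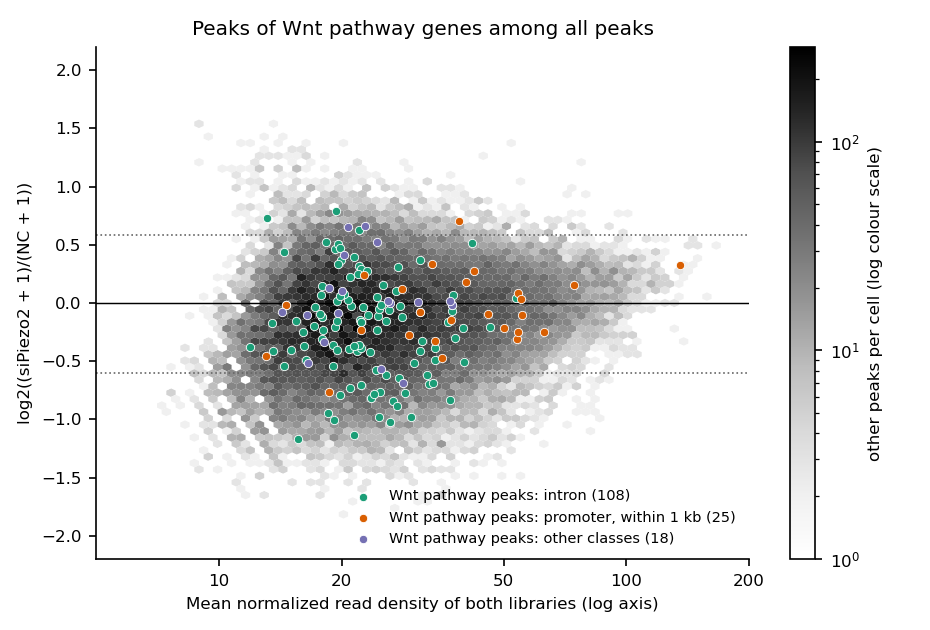
Log2 ratio of siPiezo2 to NC against the mean normalized density of both libraries (log axis) for the 151 peaks of Wnt pathway genes, coloured by class (108 intron, 25 promoter, 18 other), over all other peaks as grey cells whose shade gives their number. Dotted lines mark the fold thresholds, 42 other peaks lie outside the axes, and the member peaks fall within the cloud of all peaks, with the strongest among them the Gsk3b promoter at 0.32.

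Promoters and introns of the same gene were set side by side after the values had been seen. In all 11 members that had both a promoter peak and an intron peak, the promoter ratio was above the summed intron ratio, with a median gap of 0.26. Over all 3500 such genes the same order held for 61.9%, with a median gap of 0.11. The gap was widest in Axin1 (-0.10 at the promoter, -1.10 over introns), Tcf7l1 (0.70 and -0.27), Znrf3 (0.24 and -0.60) and Dvl2 (-0.15 and -0.81). In Wif1, Apc and Sfrp1 it was at most 0.059. Promoter peaks were stronger, with a median density of 38.9 against 22.2 in introns, and the authors' fit changes with density. On the recovered reads at equal totals, the promoter stood above the introns in 8 of the 11 members and in 55.4% of all such genes. The order was opposite in Gsk3b, Wif1 and Apc, and it was as before in Axin1, Tcf7l1, Znrf3 and Dvl2. Summed over all 25 member promoter peaks, the densities were 1085 in NC and 1079 in siPiezo2, a ratio of -0.0084 (-0.097 to 0.080).

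**Figure D5:**
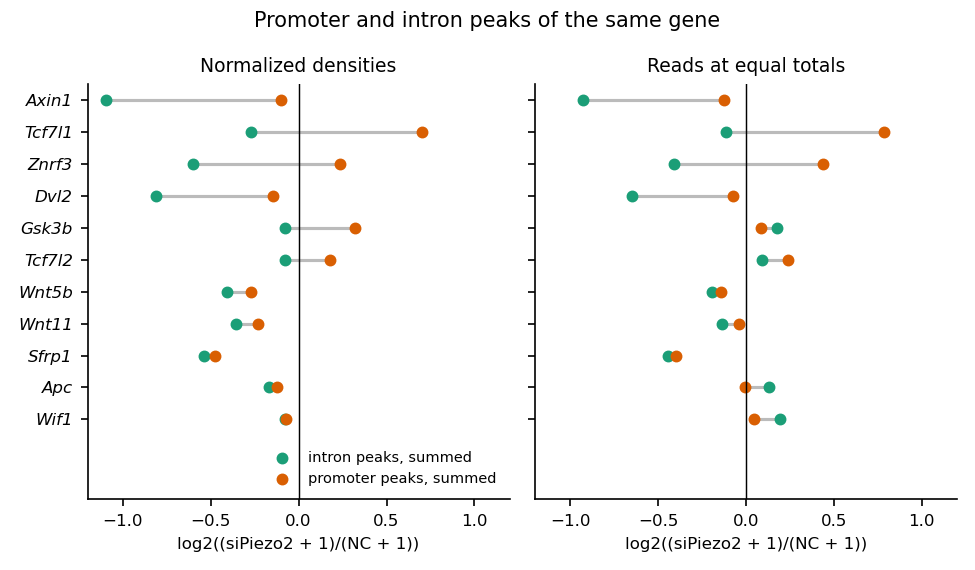
Log2 ratio of siPiezo2 to NC over the promoter peaks (orange) and over the intron peaks (green) of the 11 Wnt pathway genes that have both, on normalized densities (left) and on recovered reads at equal totals (right). On densities the promoter point is to the right in all 11 genes, and on reads in 8, with Gsk3b, Apc and Wif1 turned.

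The promoter sequences of 7 members follow, so that the DNA behind the promoter values can be read. These members were among the lowest or highest gene or peak ratios and had a promoter peak at or above the median density of all peaks. Printed are the 250 bases before the RefSeq start site, from GRCm38.p6, written 5′ to 3′ in the direction of the gene. Axin1 and Sfrp1 also met this rule.
Dvl1, chr4:155847152-155847401, plus strand: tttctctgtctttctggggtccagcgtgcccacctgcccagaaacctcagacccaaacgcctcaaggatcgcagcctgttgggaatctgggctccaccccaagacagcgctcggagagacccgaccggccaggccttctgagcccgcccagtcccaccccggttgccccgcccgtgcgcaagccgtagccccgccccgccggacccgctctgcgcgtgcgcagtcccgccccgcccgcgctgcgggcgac
Fzd4, chr7:89404116-89404365, plus strand: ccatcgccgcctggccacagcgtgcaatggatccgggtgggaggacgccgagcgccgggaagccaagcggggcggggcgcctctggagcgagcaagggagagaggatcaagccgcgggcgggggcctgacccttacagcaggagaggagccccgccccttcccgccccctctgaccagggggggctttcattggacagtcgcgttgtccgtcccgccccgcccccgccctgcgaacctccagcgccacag
Fzd5, chr1:64737751-64738000, minus strand: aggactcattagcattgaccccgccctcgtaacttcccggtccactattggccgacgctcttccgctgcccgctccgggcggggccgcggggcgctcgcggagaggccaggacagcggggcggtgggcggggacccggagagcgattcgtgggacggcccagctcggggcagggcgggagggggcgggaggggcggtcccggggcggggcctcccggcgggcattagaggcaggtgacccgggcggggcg
Gsk3b, chr16:38088751-38089000, plus strand: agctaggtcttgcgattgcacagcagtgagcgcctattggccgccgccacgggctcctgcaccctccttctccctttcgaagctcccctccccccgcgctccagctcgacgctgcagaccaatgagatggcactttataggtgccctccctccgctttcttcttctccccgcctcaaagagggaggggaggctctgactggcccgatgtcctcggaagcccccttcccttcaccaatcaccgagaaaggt
Tcf7l1, chr6:72789046-72789295, minus strand: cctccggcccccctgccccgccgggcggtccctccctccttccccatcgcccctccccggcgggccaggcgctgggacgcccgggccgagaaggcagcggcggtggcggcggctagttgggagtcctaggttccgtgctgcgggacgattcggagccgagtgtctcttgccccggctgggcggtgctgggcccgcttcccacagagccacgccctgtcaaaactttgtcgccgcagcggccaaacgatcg
Tcf7l2, chr19:55741560-55741809, plus strand: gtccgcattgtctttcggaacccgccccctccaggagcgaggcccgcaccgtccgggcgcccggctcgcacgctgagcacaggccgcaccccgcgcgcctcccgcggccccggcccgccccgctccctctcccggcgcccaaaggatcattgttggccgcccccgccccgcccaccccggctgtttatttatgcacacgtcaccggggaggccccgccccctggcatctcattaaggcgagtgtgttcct
Wnt5b, chr6:119467212-119467461, minus strand: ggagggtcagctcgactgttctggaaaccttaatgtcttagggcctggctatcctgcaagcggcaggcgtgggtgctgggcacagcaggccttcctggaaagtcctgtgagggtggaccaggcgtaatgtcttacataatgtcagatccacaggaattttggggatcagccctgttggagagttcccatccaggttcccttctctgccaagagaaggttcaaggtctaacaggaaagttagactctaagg

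All 250 printed bases lay under the promoter peak of Fzd4, Fzd5, Gsk3b and Tcf7l2, with the start of the same transcript as the anchor, 194 bases in Dvl1, 192 in Tcf7l1 and 22 in Wnt5b. Windows of 300 bases, from 250 before the start to 50 after it, were searched on both strands for CTTTGAT (a TCF/LEF core), GGAATG (a TEAD core) and TGANTCA (AP-1). Capitals would mark a match, and none of the printed stretches held one. The searched window of the printed Wnt5b start held a TEAD match after the start, outside the printed bases. Taking 1 start per gene, the first in the order of the RefSeq table, of the 30 member genes with a RefSeq promoter 1 held the TCF/LEF letters (3.33%, against 3.72% of all 27025 promoters), 1 the TEAD letters (3.33% against 14.6%) and 3 the AP-1 letters (10% against 7.93%). Over all 37 listed starts of the 30 genes, 2 genes held the TCF/LEF letters (Wnt11 and Wnt5b), 2 the TEAD letters (Dvl2 and Wnt5b) and 3 the AP-1 letters (Dvl2, Ror2 and Wnt5b). Dvl2 held both a TEAD and an AP-1 match, which did not overlap, in a promoter whose peak had 39.0 and 35.2. A match is a run of letters, not a shown binding site.

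Other genes of the pathway, listed by function and outside the symbol rule, stood close to 0 as a group. Of 59 such genes, with roles in ligand secretion, transcription, planar polarity and calcium signaling, 53 had a peak. None of the 53 passed 1.5-fold, against 6.21% of all genes lower and 1.54% higher, and their median ratio was -0.044. Below 0 were 28 of the 53 (52.8%, all genes 62.6%), and 20 on reads at equal totals (37.7%, all genes 46.0%). The interval lay below 0 for 8 of them and above 0 for 3, near the shares of 15.8% and 4.68% among all genes. Among the 20 listed Wnt target genes, 15 had a peak, with a median of -0.022, 8 below 0 as deposited and 6 on reads at equal totals. Their interval lay below 0 for 4 (Tnfrsf11b, Apcdd1, Ccn4 and Nkd1) and above 0 for 1 (Lgr5), beside the same shares of all genes. On reads at equal totals the interval lay below 0 for 4 and above 0 for 10 of the 53 pathway genes, and below 0 for 3 and above 0 for 2 of the 15 targets (all genes 8.39% and 9.36%). Over both lists together the density was 9239 in NC and 8817 in siPiezo2, a ratio of -0.067 (-0.098 to -0.037) as deposited and 0.022 (-0.0081 to 0.053), which holds 0, on reads at equal totals.

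The listed targets past 1.5-fold were Lgr5 and Tnfrsf11b. Lgr5, the R-spondin receptor of many stem cells, had 13.1 in NC and 25.4 in siPiezo2 at a single weak peak (30 and 42 reads), a ratio of 0.90 (0.23 to 1.59). Tnfrsf11b, which encodes osteoprotegerin, had 79.2 in NC and 43.7 in siPiezo2 over 2 peaks (193 and 69 reads), a ratio of -0.84 (-1.25 to -0.45). Of the remaining targets, the cell-cycle genes Ccnd1 (38.9 and 44.8) and Myc (118 and 119.8) had intervals of -0.26 to 0.65 and -0.25 to 0.29. The interval of Ccn4 (also called Wisp1), a matricellular protein gene with 215 and 161, was -0.64 to -0.20. Apcdd1, a membrane inhibitor of Wnt signaling, had 77.3 in NC and 53.9 in siPiezo2, a ratio of -0.51 (-0.89 to -0.14). Nkd1, which binds Dishevelled and restrains the pathway, had 113 in NC and 90.3 in siPiezo2, a ratio of -0.32 (-0.61 to -0.021) whose interval holds 0 under each of the other 4 scalings (-0.55 to 0.047 on reads at equal totals). The intervals of Tnfrsf11b, Ccn4 and Apcdd1 lay below 0 and that of Lgr5 above 0 under all 5 scalings, with the upper bound of Apcdd1 close to 0 under the other 4, while that of Nkd2, the paralog of Nkd1, lay above 0 under every scaling other than the deposited one (-0.058 to 0.87).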

How the data were processed

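ATAC-seq was performed on 1 NC and 1 siPiezo2 library. The methods name trimming, bwa, Picard and MACS2, the submitters' processing notes BWA 0.7.12 and mm10. Of 23 start sites of member transcripts in the table, 1 was exactly that of GRCm38 (mm10), and that of Wnt16 stood at 22288226 against 22288227. No genome sequence was therefore read by the table's positions. The authors deposited 1 table of peaks with normalized read densities (signal). Its log2 ratio, mean log2 density and p-value columns are the authors' own, and these deposited log2 and p-value columns were not used.

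Densities were summed per gene over the peaks assigned by the table's annotation. The authors' fit of the log2 ratio on mean log2 density (intercept -0.25, slope 0.17) was found from the densities as the line that makes the reads of both libraries whole, and reads were whole within 0.05 for 100% of the peaks. With no replicates there was no test. Named are members past 1.5-fold (below 0.66 or above 1.5), the 5 lowest and 5 highest gene ratios at or above the median summed density of all genes, the strongest and most peak-rich member of each role, and the genes of the 5 lowest and 5 highest peak ratios at or above the median density of all peaks; other members appear by values. Other pathway and target genes are named where past 1.5-fold, and Ccnd1, Myc, Ccn4, Apcdd1, Nkd1 and Nkd2 were added after their values were seen. The members, lists and rules were chosen with earlier results of these data known. Alternatives covered the pseudocount (0.1), scaling (trimmed mean: 30% of ratios and 5% of densities off each end), distance (50 kb), peak strength, peak calls, windows and the fold threshold (2). Unscaled reads, intervals under the other scalings, sums and peak calls on reads, leaving out Ror1 and the promoter and intron comparison were added after seeing the data. Promoters came from RefSeq. The read recovery and intervals were tested on simulated data. Tables were made in Python 3.11.15 (pandas 2.3.3, numpy 2.4.6), intervals with scipy 1.17.1 and plots with matplotlib 3.10.9.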

Additional observations from a re-analysis of the deposited data

How the results depend on the processing

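The scaling moved the medians. The median over member genes was -0.12 as deposited, -0.036 at equal total density, 0.015 with median-of-ratios scaling, 0.018 with trimmed mean scaling, 0.045 on reads at equal totals and -0.69 on unscaled reads, which keep the difference in depth. In the same order the median over the other pathway and target genes went from -0.033 to 0.054, 0.11, 0.11, 0.077 and -0.64, and the median over member peaks from -0.14 to -0.059, -0.0096, -0.0065, 0.024 and -0.69. The promoter peak median kept its sign at equal total density and on reads at equal totals, and in the same order went from -0.098 to -0.012, 0.039, 0.042, -0.042 and -0.75. Each scaling shifts all ratios by its own construction.

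Counts past the threshold stand here beside the share of all genes or all peaks. Genes higher numbered 2 as deposited (1.54%), 4 with median-of-ratios (3.83%), 4 with trimmed mean scaling (3.89%), 4 on reads at equal totals (4.32%), 1 on peaks called in both libraries (2.41%) and 1 on promoter peaks (1.89%). Genes lower numbered 0 on reads at equal totals (3.02%) and 4 on the strongest peak of each gene (8.64%), and on unscaled reads 30 were lower (63.4%) and 0 higher (0.118%). Member peaks higher numbered 10 at equal total density (4.9%), 12 with median-of-ratios (6.27%), 12 with trimmed mean scaling (6.36%) and 15 on reads at equal totals (8%), where 14 were lower (7.42%). At equal total density, with median-of-ratios and with trimmed mean scaling, 20 (9.97%), 17 (8.35%) and 17 (8.27%) were lower. Without peaks over 50 kb from the start 13 were lower (13.0%), and on unscaled reads 92 (59.6%) against 0 higher (0.407%). On peaks called in both libraries, which leaves 25 members, the medians were -0.073 over genes, -0.073 over peaks and 0.044 over the other genes, with 2 peaks lower (5.36%) and 2 higher (4.41%). At 2-fold, 0 genes were lower (0.839%) and 0 higher (0.154%), and 4 peaks lower (2.76%) and 0 higher (0.504%). The cause of changes other than those of scaling or fewer peaks was not tested. No library could be left out, with 1 per condition. No paired analysis was possible because each condition has a single library and no result comes from a test. Depth limits single peaks, since medians of 58 and 36 reads give wide intervals.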
